A study of Mus musculus with 4 samples.

Results

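The secreted phospholipase A2 (sPLA2) genes were followed across 4 colon arrays of a Pla2g3 knockout study, each array hybridized with RNA pooled from the mice of 1 group. The members were the 10 genes Pla2g3, Pla2g1b, Pla2g2a, Pla2g2d, Pla2g2e, Pla2g2f, Pla2g5, Pla2g10, Pla2g12a and Pla2g12b, taken by their name in the array files and without regard to signal. They carried 16 of the 39429 probes and were 10 of 22371 named genes. The groups were Pla2g3+/+ and Pla2g3-/- mice given saline vehicle, and Pla2g3+/+ and Pla2g3-/- mice given 6 weekly injections of azoxymethane (AOM), a colon carcinogen, of 10 mg/kg each and killed 28 weeks after the last one. All were male, 42 weeks old and labelled B6.129 (n3), a mixed stock at backcross generation 3, and the genotypes were littermates. The deposited description gives 3 to 5 mice per pool and names the AOM samples colorectal cancer, whereas the study's text describes RNA of whole descending colon and a single number of mice per pool within that range. Groups were not replicated, and single differences between arrays therefore carry no p-value.

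sPLA2s are small calcium-dependent enzymes that are released from cells and cut the fatty acid from the middle position of membrane phospholipids, giving a free fatty acid such as arachidonate and a lysophospholipid. The classical members, groups I, II, V and X, share a compact disulfide-bonded fold, whereas groups III and XII are distant relatives. In the gut, group IIA is a bactericidal product of Paneth cells, group IB is the digestive enzyme of the pancreas, and group X is made by colonic epithelium.

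The sequences that follow are those of probes on which the results turn, read 5′ to 3′ from the array files. They are the 3 probes of the targeted gene, the probes of Pla2g2a and Pla2g12a, and the paired probes of Pla2g1b, which gave unlike patterns. Capitals mark a stop codon that closes an open reading frame at the probe's end. Of the Pla2g3 probes 1 and 3 and the Pla2g1b probes, only the first 30 of 60 bases are given. Probes of a gene are numbered from the brightest.
Pla2g3 probe 1: aggagtaaatgaattaatcaacacacatac
Pla2g3 probe 2: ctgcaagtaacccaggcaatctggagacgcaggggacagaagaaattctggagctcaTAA
Pla2g3 probe 3: aaatttcaggttgatgccctaaacatttct
Pla2g2a probe 1: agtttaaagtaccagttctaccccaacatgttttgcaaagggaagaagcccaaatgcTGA
Pla2g12a probe 1: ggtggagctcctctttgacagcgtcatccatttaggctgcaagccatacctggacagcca
Pla2g1b probe 1: aggcgggggccaccacacctggaaaaagta
Pla2g1b probe 2: cgtacaacaaggaatacaaaaaccttgaca

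On the mm9 build given in the array files, Pla2g3 probes 1, 2 and 3 lie on the plus strand at chr11:3394109-3394168, chr11:3393127-3393186 and chr11:3399294-3399353, so that 5125 bases separate the first from the third. The Pla2g2a probe lies at chr4:138390748-138390807 and the Pla2g12a probe at chr3:129597769-129597828. The Pla2g1b probes lie at chr5:115921797-115921853 and chr5:115924590-115924649. No gene models on mm9 were used here, so coding and untranslated positions were not assigned. AATAAA, the usual polyadenylation signal, stood on the strand of the probe in 6 of 16 member probes (37.5%) and in 12.6% of all probes on the array. No probe of another gene shared a run of 20 bases with a member probe on either strand, and among 113 pairs of probes of different members at most 28 of 60 bases were equal in an ungapped alignment.

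Signals are given as multiples of the array's own 75th percentile of intensity, which was 646 and 649.9 on the vehicle arrays and 1309 and 1169 on the AOM arrays (Pla2g3+/+ first). By the test of the scanner software, 64.8% to 69.4% of the spots stood well above background. All 10 members had a probe well above background on all 4 arrays. A probe that passed on 1 array of a pair is given a bound, written as "at least". The only error available for a single comparison is the software's error model of the spots, from which a 95% interval of each log2 difference was formed. That interval holds spot error and not the spread between mice.

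The Pla2g3+/+ AOM array stood apart in its tissue markers (values as summed signal of a list). Smooth muscle markers summed to 31.2 there and to 498 to 543 on the other 3 arrays, with Tagln, Acta2, Actg2 and Cnn1 the brightest of 10. Colonocyte markers summed to 79.3 against 338 to 584, and goblet cell markers to 140 against 645 to 1921. Markers of all epithelium, 8 of 8 of them well above background on every array, differed less, at 362 against 497 to 537. Wnt targets of colon tumors summed to 98.8 against 26.1 to 29.8, mast cell markers to 32.3 against 1.74 to 2.02, and neutrophil markers to 94.5 against 54.8 to 62.2. Most of the neutrophil sum on the other 3 arrays came from Csf3r. Its log2 differences of AOM against vehicle were -0.16 in Pla2g3+/+ and 0.10 in the pools labelled Pla2g3-/-. Of 9 neutrophil markers with a value, 5 were over 2-fold higher after AOM in Pla2g3+/+ and 0 lower, beside 15.1% and 22.4% of all genes. Where a marker list and a member differ together, fewer cells of a type and less RNA per cell cannot be told apart in pooled tissue.

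**Figure D1:**
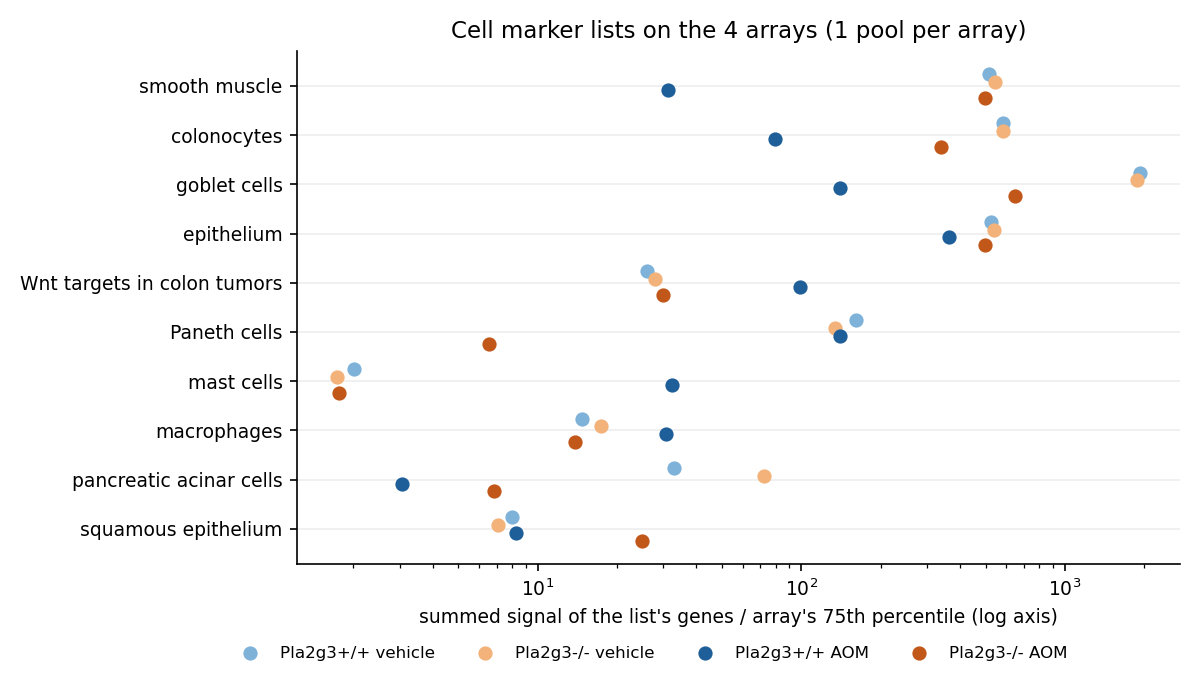
Summed signal of the genes of 10 marker lists on each array, as a multiple of the array's 75th percentile, on a log axis. Each point is 1 pool. The Pla2g3+/+ AOM pool is lowest for smooth muscle (31.2), colonocytes (79.3) and goblet cells (140) and highest for Wnt targets (98.8), mast cells (32.3) and macrophages (30.6).

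Pla2g3, the targeted gene, encodes group III sPLA2. Its signal was not lower on the arrays labelled Pla2g3-/-. Probe 1 read 0.531 for Pla2g3+/+ and 0.656 for the array labelled Pla2g3-/- with vehicle, and 0.232 and 1.40 after AOM. Probe 2 read 0.0839 and 0.0887 with vehicle and 0.0305 and 0.203 after AOM. Probe 3 was not well above background in Pla2g3+/+ with vehicle and read 0.0384 on the other vehicle array, then 0.0312 and 0.0861 after AOM. The array labelled Pla2g3-/- after AOM was thus the highest of the 4 for every Pla2g3 probe. After AOM it exceeded Pla2g3+/+ by 6.01-fold with probe 1 (log2 difference 2.59, interval 2.19 to 2.99), by 6.66-fold with probe 2 and by 2.76-fold with probe 3. With vehicle the difference was 1.23-fold with probe 1, an interval of -0.10 to 0.70 on the log2 scale that includes 0, and 1.06-fold with probe 2. The third probe gave a difference of at least 2.31-fold with vehicle. Which part of Pla2g3 was deleted is not given in the sources used here, and a probe outside the deleted part does not check the genotype. By quantitative RT-PCR the study reports a strong rise of the mast cell proteases Mcpt1 and Mcpt2 after AOM that Pla2g3-/- colon almost lacked. The arrays as labelled ran in that direction for both genes after AOM, with the values given below. For Pla2g3 itself the study reports a decrease in colon of the AOM model by RT-PCR. It also reports no evident staining for the group III protein in Pla2g3-/- colon. Whether the labels of the 2 genotypes were exchanged was not tested, and an exchange would turn the direction of every genotype comparison given here. The genotype is therefore written as labelled throughout.

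AOM against vehicle ran in opposite directions for Pla2g3 in the pools of the 2 genotypes. In Pla2g3+/+ it was 2.29-fold lower after AOM with probe 1 (interval of the log2 difference -1.60 to -0.79) and 2.75-fold lower with probe 2. In the pools labelled Pla2g3-/- it was 2.13-fold higher with probe 1, 2.29-fold with probe 2 and 2.24-fold with probe 3. The third probe differed from the others in Pla2g3+/+, where it was at least 1.88-fold higher after AOM. Without scaling between arrays the log2 difference of probe 1 in Pla2g3+/+ was -0.17, against -1.19 with it. Group III sPLA2 is known from the maturation of mast cells. After AOM 9 of 10 mast cell markers were over 2-fold lower on the array labelled Pla2g3-/- than on the Pla2g3+/+ one. Their median log2 difference was -3.32, and 12.9% of 17195 genes were over 2-fold lower. With vehicle 0 of 6 markers with a value were past 2-fold, with a median of -0.08. The list summed to 2.02 and 1.74 with vehicle and to 32.3 and 1.76 after AOM (Pla2g3+/+ first). The part of Pla2g3 in these values was not tested. Mcpt1 and Mcpt2, proteases of mucosal mast cells, had unscaled intensities after AOM of 10638 and 10314 in Pla2g3+/+. In the pool labelled Pla2g3-/- they were at 31.95 and 27.54. Differences of other markers were smaller: Tpsb2 was 2.20-fold lower in that pool. Kit, the brightest of the list, went the other way, with a log2 difference of 0.67 between the genotypes after AOM.

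**Figure D2:**
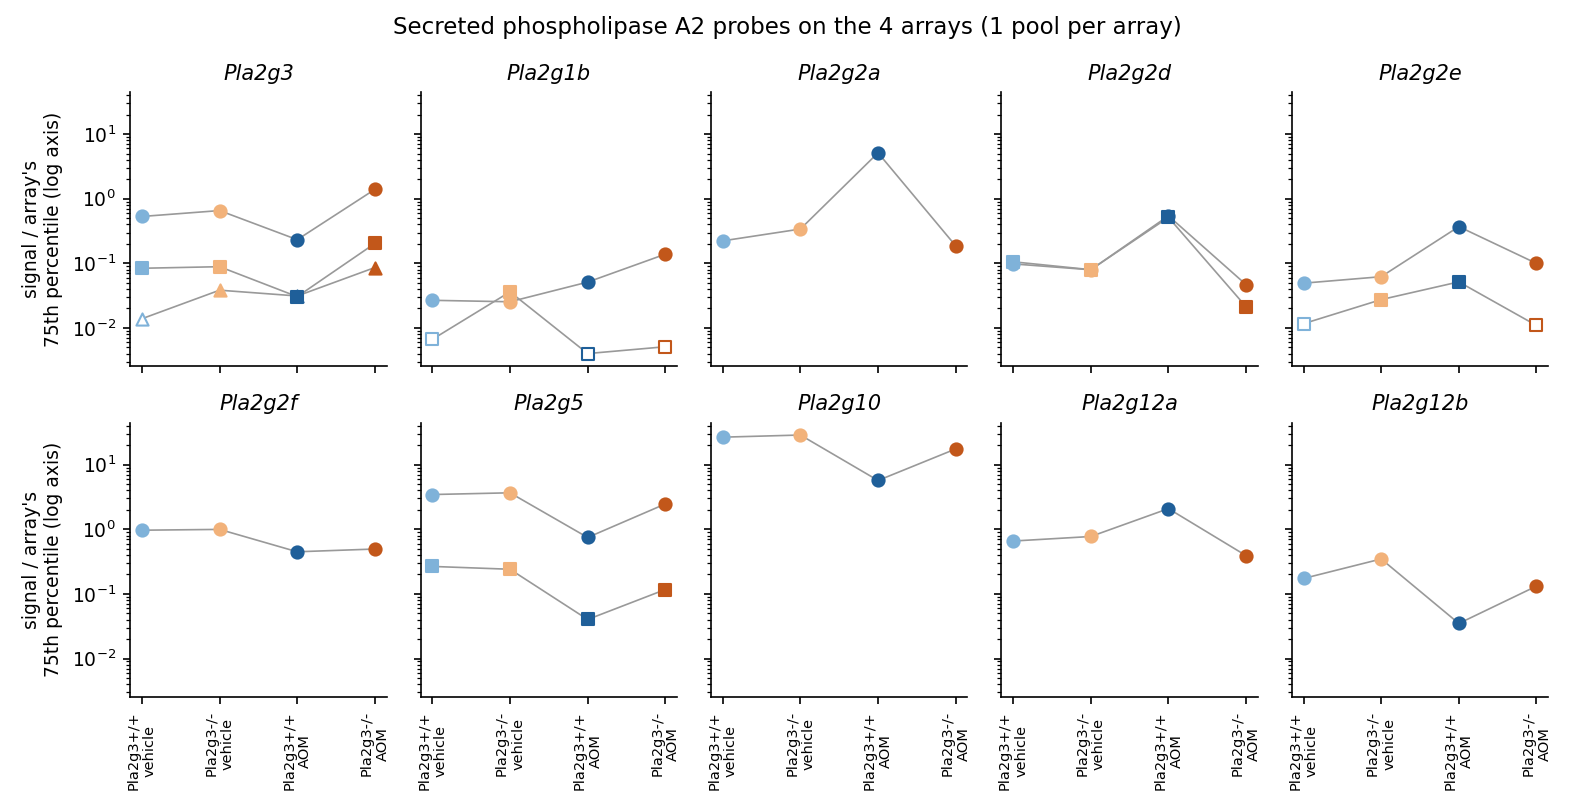
Signal of each sPLA2 probe on the 4 arrays as a multiple of the array's 75th percentile (log axis). Circles, squares and triangles are probes 1, 2 and 3 of a gene, each point is 1 pool, and open symbols were not well above background. The Pla2g3+/+ AOM array holds the highest point of Pla2g2a (5.14) and Pla2g12a (2.09) and the lowest of Pla2g10 (5.70).

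With vehicle, the sPLA2 family differed little between the arrays of the 2 genotypes. Past 2-fold was 1 of 10 members, Pla2g12b, against 3.25% of 16392 genes (1.93% higher and 1.32% lower), and the median log2 difference was 0.17 over the members and -0.02 over all genes. Pla2g12b, a member without phospholipase activity that is known from liver and intestine, read 0.173 in Pla2g3+/+ and 0.347 in the array labelled Pla2g3-/-, just past the 2-fold threshold (interval of the log2 difference 0.59 to 1.41). After normexp background correction with quantile normalization its log2 difference was 0.70. The study's own array ratios put Pla2g12b near equality without AOM, unlike the value here, and higher in Pla2g3-/- colon after AOM. The reason for this discrepancy was not tested. Pla2g2a followed at 1.52-fold higher (interval of the log2 difference 0.20 to 1.02). For the brightest probe of the other 8 members the interval included 0, from Pla2g2d at -0.30 to Pla2g2e at 0.33.

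After AOM, 9 of 10 members differed by more than 2-fold between the arrays of the 2 genotypes, 5 higher and 4 lower in the one labelled Pla2g3-/-, where 28% of 17195 genes did so (15.1% higher and 12.9% lower). The 4 that were lower were Pla2g2a, Pla2g2d, Pla2g12a and Pla2g2e. The 5 that were higher were Pla2g3, Pla2g12b, Pla2g5, Pla2g10 and Pla2g1b, and Pla2g2f was within 2-fold. Pla2g1b is counted by probe 1, which the array annotates by a cDNA clone. Its probe 2, annotated by a RefSeq transcript, was not well above background on either AOM array. The median log2 difference over the members was 0.79, with 6 above 0 and 4 below, and 0.03 over all genes. In Pla2g3+/+, AOM against vehicle put 4 members over 2-fold higher and 5 lower, against 37.5% of 17275 genes in either direction (15.1% higher and 22.4% lower). In the pools labelled Pla2g3-/- it put 2 higher and 2 lower, against 24.8% of 16515 genes (9.64% higher and 15.1% lower). These 2 splits follow the scaling: without it 7751 genes were higher and 1231 lower after AOM in Pla2g3+/+, and 6396 and 625 in the pools labelled Pla2g3-/-. With normexp and quantile normalization they were 1787 and 1689, and 900 and 866. The Pla2g3+/+ AOM array enters both the genotype comparison after AOM and the AOM comparison in Pla2g3+/+, so these counts are not independent. That array was the highest or the lowest of the 4 for 9 of 10 members, and for 67.0% of the 14788 genes well above background on all arrays.

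**Figure D3:**
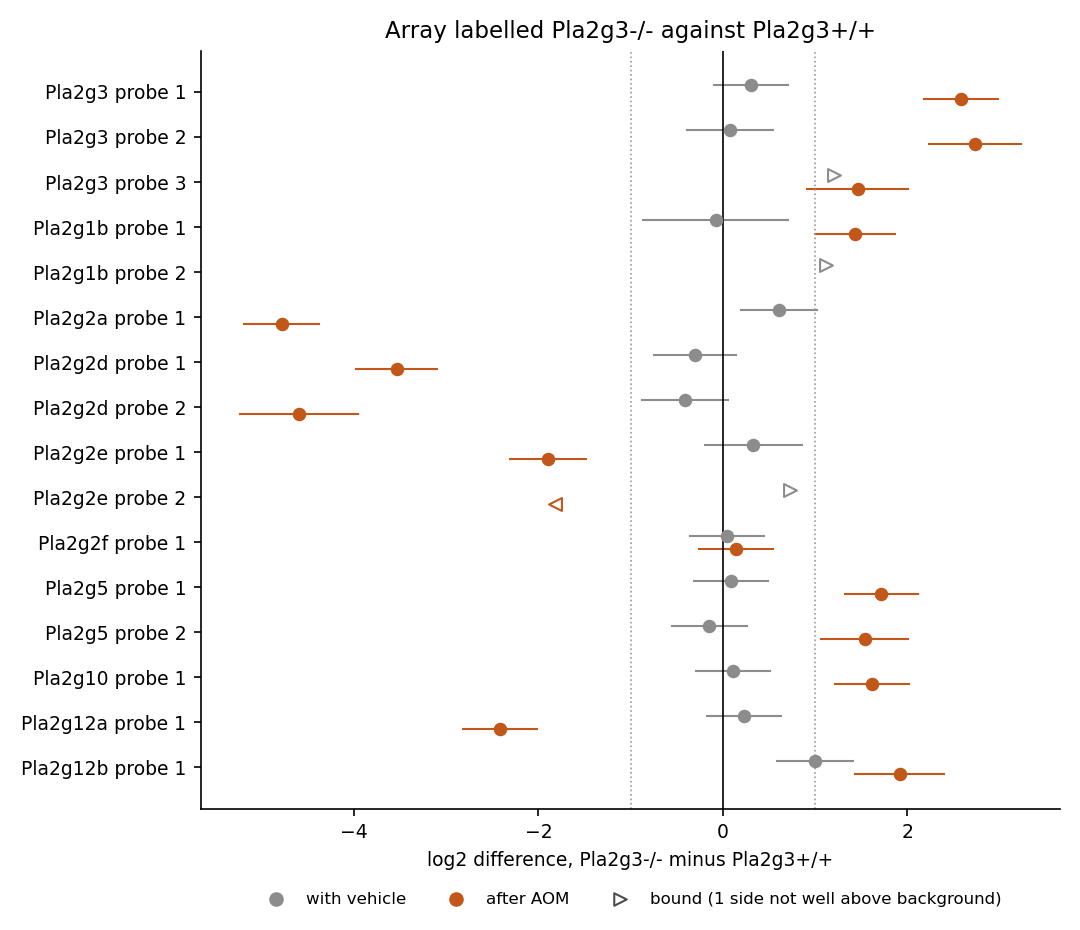
Difference between the array labelled Pla2g3-/- and the Pla2g3+/+ array for each sPLA2 probe (log2 scale), with vehicle in grey and after AOM in orange. Bars are 95% intervals from the scanner software's spot error, triangles are bounds and point away from 0, and dotted lines mark 2-fold. Vehicle points other than bounds lie within 2-fold except Pla2g12b, and the AOM points run from -4.78 for Pla2g2a to 2.74 for probe 2 of Pla2g3.

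By the brightest probe of each gene, Pla2g2a had the widest range of the family, 27.5-fold over the 4 arrays. It encodes group IIA sPLA2 and is known as Mom1, a modifier of intestinal tumor number. RefSeq (GRCm38.p6, the C57BL/6 genome) lists it as a transcribed pseudogene, since C57BL/6 and some other inbred strains carry a frameshift in it, so a transcript here does not stand for an active enzyme. Its probe, whose last codon is the stop shown above, read 0.223 and 0.339 with vehicle (Pla2g3+/+ first) and 5.14 and 0.187 after AOM. A single array, that of Pla2g3+/+ after AOM, was high and the other 3 were within 2-fold of each other. In Pla2g3+/+ the gene was 23.1-fold higher after AOM (log2 difference 4.53, interval 4.12 to 4.93), a difference exceeded by 125 of 17275 genes. In the pools labelled Pla2g3-/- it was 1.82-fold lower after AOM. After AOM it was 27.5-fold lower in the pool labelled Pla2g3-/-, with 100 of 17195 genes lower still.

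Paneth cell markers ran with Pla2g2a only in part, and their part in its values was not tested. Of 11 on the list, 8 were on the array. After AOM 8 of 8 were over 2-fold lower in the pool labelled Pla2g3-/- than in Pla2g3+/+, beside 12.9% of all genes. In Pla2g3+/+ 6 of 8 were over 2-fold higher after AOM and 1 was lower, beside 15.1% and 22.4% of all genes. In the pools labelled Pla2g3-/- 1 of 6 with a value was higher and 5 lower, beside 9.64% and 15.1% of all genes. Their median log2 difference there was -3.36, against -0.86 for Pla2g2a. Defa23, a Paneth cell defensin, had unscaled intensities of 20.16 and 27.25 with vehicle and 50586 and 114 after AOM. Lyz1, Paneth cell lysozyme, had 5675, 8008, 38342 and 6452 in the same order. Ang4, a microbicidal ribonuclease also on the list, went the other way in Pla2g3+/+, from 84769 with vehicle to 6021 after AOM. Itln1 of the same list changed little in Pla2g3+/+, with a log2 difference of -0.13. The list as a whole summed to 161, 134, 140 and 6.55.

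Pla2g2d encodes group IID sPLA2, which is known from dendritic cells and macrophages of lymphoid tissue. Probe 1 read 0.0980 and 0.0795 with vehicle and 0.543 and 0.0468 after AOM, and probe 2 read 0.106, 0.0797, 0.515 and 0.0213. Both probes were highest on the Pla2g3+/+ AOM array. The gene was 5.54-fold higher after AOM in Pla2g3+/+ with probe 1 and 4.87-fold with probe 2, and after AOM it was 11.6-fold and 24.2-fold lower in the pool labelled Pla2g3-/-. The probes parted most in AOM against vehicle within the pools labelled Pla2g3-/-, where the log2 differences were -0.76 and -1.91. Macrophage markers summed to 30.6 in Pla2g3+/+ after AOM and to 13.9 to 17.4 elsewhere, and 7 of the 9 with a value were over 2-fold higher after AOM in Pla2g3+/+. Among markers of dendritic cells and lymphoid tissue 2 of 8 were higher and 4 lower in that comparison. Of all genes 15.1% were over 2-fold higher in it and 22.4% lower. The dendritic and lymphoid markers summed to 2.85 against 0.953 to 2.15. Markers of B and plasma cells summed to 105, 101, 60.5 and 23.3. The part of these cells in the values of Pla2g2d was not tested.

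Pla2g12a and Pla2g2e completed the members that were highest in Pla2g3+/+ after AOM. Group XIIA sPLA2, the product of Pla2g12a, is a widely expressed form with weak enzymatic activity. Its probe read 0.658 and 0.774 with vehicle and 2.09 and 0.391 after AOM. That is 3.17-fold higher after AOM in Pla2g3+/+ (interval of the log2 difference 1.27 to 2.07), 1.98-fold lower after AOM in the pools labelled Pla2g3-/-, and 5.34-fold lower in the AOM pool labelled Pla2g3-/- than in the Pla2g3+/+ one. Pla2g2e, known from hair follicles, read 0.0493 and 0.0621 with vehicle and 0.370 and 0.0997 after AOM with probe 1. It was 7.50-fold higher after AOM in Pla2g3+/+ and 1.61-fold higher in the pools labelled Pla2g3-/-. The 60 bases of its second probe, at chr4:138438368-138438427, are open in frame and are shown because the probes disagreed in 1 comparison.
Pla2g2e probe 2: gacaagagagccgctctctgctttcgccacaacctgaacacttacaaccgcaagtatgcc
This dimmer probe was well above background on 2 arrays. It was at least 3.11-fold higher after AOM in Pla2g3+/+. In the pools labelled Pla2g3-/- it was at least 1.88-fold lower after AOM, where probe 1 was higher. That bound sets an unscaled intensity of 17.84 with vehicle against 17.1, the lowest signal well above background on the AOM array. Its size therefore rests on the scaling, and both signals lie near the limit of detection.

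Pla2g10, Pla2g5 and Pla2g12b were lowest in Pla2g3+/+ after AOM. Group X sPLA2, the product of Pla2g10 and the most active of the family on phosphatidylcholine-rich membranes, read 26.7 and 28.8 with vehicle and 5.70 and 17.5 after AOM. Its vehicle arrays differed by 1.08-fold. After AOM it was 4.68-fold lower in Pla2g3+/+ (log2 difference -2.23, interval -2.63 to -1.83) and 1.64-fold lower in the pools labelled Pla2g3-/-, and it was 3.08-fold higher in the AOM pool labelled Pla2g3-/- than in the Pla2g3+/+ one. Without scaling between arrays the difference in the pools labelled Pla2g3-/- turned, from -0.72 to 0.13 on the log2 scale. Goblet cell markers, among them Zg16, Clca1, Tff3 and Agr2, were over 2-fold lower after AOM in 10 of 10 in Pla2g3+/+ and in 8 of 10 in the pools labelled Pla2g3-/-, with median log2 differences of -3.74 and -1.30. Colonocyte markers were lower in 9 of 10 and in 3 of 10. Of all genes 22.4% and 15.1% were over 2-fold lower in the same comparisons. The part of these cells in the values of Pla2g10 was not tested.

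Pla2g5 encodes group V sPLA2. Its second probe maps over 750 bases of mm9, chr4:138356545-138357294 on the minus strand, for 60 bases of sequence, so it spans an intron and reads spliced RNA.
Pla2g5 probe 2: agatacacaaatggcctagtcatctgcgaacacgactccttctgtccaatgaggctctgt
Probe 1 read 3.45 and 3.67 with vehicle and 0.747 and 2.47 after AOM, and probe 2 read 0.266, 0.241, 0.0402 and 0.117. Both were lowest in Pla2g3+/+ after AOM. The gene was 4.62-fold lower after AOM with probe 1 and 6.62-fold lower with probe 2 in Pla2g3+/+, and 1.49-fold and 2.06-fold lower in the pools labelled Pla2g3-/-. Without scaling the difference of probe 1 in those pools turned, from -0.57 to 0.27 on the log2 scale. After AOM it was 3.30-fold and 2.91-fold higher in the pool labelled Pla2g3-/-. Smooth muscle markers were over 2-fold lower after AOM in 10 of 10 in Pla2g3+/+ and in 0 of 10 in the pools labelled Pla2g3-/-, with medians of -4.34 and -0.10. Of all genes 22.4% and 15.1% were over 2-fold lower in the same comparisons. The part of smooth muscle in the values of Pla2g5 was not tested.

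Pla2g12b read 0.0349 in Pla2g3+/+ and 0.132 in the pool labelled Pla2g3-/- after AOM, both below their vehicle arrays. The differences were 4.97-fold and 2.63-fold lower after AOM, and 3.78-fold higher in the AOM pool labelled Pla2g3-/-. After normexp correction with quantile normalization these 3 were within 2-fold, with log2 differences of -0.97, -0.88 and 0.78. Enterocyte markers of the absorptive small intestine summed to 134 and 157 with vehicle and to 0.827 and 6.80 after AOM, most of it from Fabp2, and their part was not tested.

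Pla2g2f was, with the scaling, also lowest in Pla2g3+/+ after AOM, but nearly as low on the other AOM array. This gene, whose group IIF enzyme is known from the suprabasal epidermis, read 0.968 and 0.996 with vehicle and 0.449 and 0.495 after AOM. Its log2 differences between the genotypes were 0.04 with vehicle and 0.14 after AOM, and it was 2.16-fold and 2.01-fold lower after AOM in Pla2g3+/+ and in the pools labelled Pla2g3-/-. Without scaling between arrays these AOM differences were -0.09 and -0.16 on the log2 scale, so the calls rest on the scaling. Markers of squamous epithelium, such as Trp63 and Krt14, summed to 7.99 and 7.10 with vehicle and 8.29 and 24.9 after AOM. Most of the last sum came from 1 gene, Krt5, with unscaled intensities of 34.80 and 17850 after AOM. Between the genotypes after AOM 1 of 9 markers was over 2-fold higher and 2 lower, beside 15.1% and 12.9% of all genes.

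The probes of Pla2g1b gave unlike patterns. The array annotates probe 1 by a cDNA clone and probe 2 by a RefSeq transcript, so values of probe 1 may not stand for that transcript. Probe 1 was dim with vehicle, at 0.0268 and 0.0254, and read 0.0512 and 0.138 after AOM, 5.45-fold higher after AOM in the pools labelled Pla2g3-/-, which 103 of 16515 genes exceeded. After AOM it was 2.70-fold higher in the pool labelled Pla2g3-/-, as the highest of the 4 arrays. After normexp correction with quantile normalization that log2 difference was 0.70, within 2-fold. Probe 2 was well above background on 1 array only, that labelled Pla2g3-/- with vehicle, where it read 0.0362, at least 2.18-fold above Pla2g3+/+ with vehicle and at least 2.47-fold above the AOM array labelled Pla2g3-/-. Pancreatic acinar cell markers also stood highest on that array. They summed to 72.5 there, against 32.8 in Pla2g3+/+ with vehicle and 3.06 and 6.85 after AOM, and 15 of 15 were well above background there against 11, 7 and 7. In 13 of 15 they were over 2-fold higher there than in Pla2g3+/+ with vehicle, beside 1.93% of all genes. Their median log2 difference was 4.67. The brightest genes of the list, the elastase Cela1 and the colipase Clps, were not among those 13, with log2 differences of -0.33 and -0.59 with vehicle. Ctrb1, the precursor of chymotrypsin, had unscaled intensities of 55.82 and 1435 with vehicle and 80.94 and 65.05 after AOM. The part of acinar RNA in the signal of Pla2g1b was not tested.

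**Figure D4:**
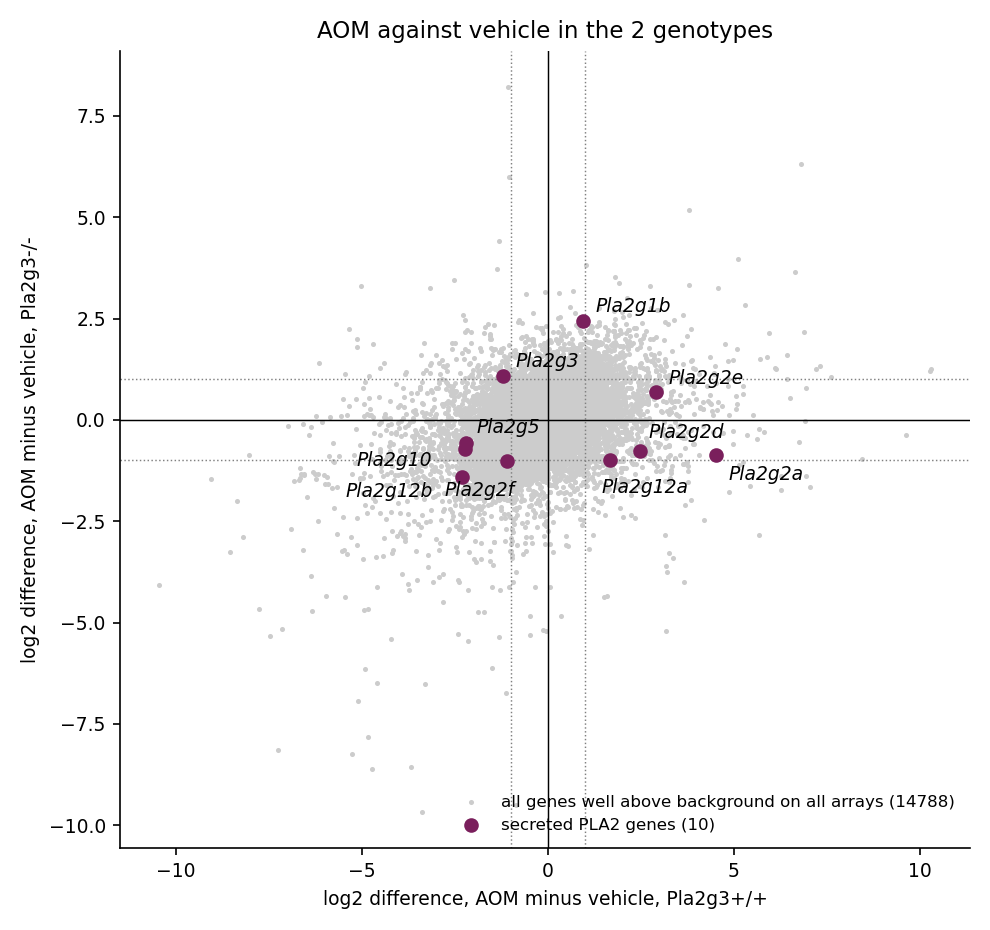
AOM against vehicle in Pla2g3+/+ (x axis) and in the pools labelled Pla2g3-/- (y axis), both as log2 differences, for the 10 sPLA2 genes by their brightest probe and for 14788 genes well above background on all arrays (grey). Dotted lines mark 2-fold. Pla2g2a lies at 4.53 and -0.86, Pla2g1b at 0.94 and 2.45, and Pla2g3 at -1.19 and 1.09.

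Neighbours on chromosome 4 did not share a direction. In the order of RefSeq, Pla2g2c, Pla2g2f, Pla2g2d, Pla2g5, Pla2g2a and Pla2g2e form a cluster that holds 5 members, and its probes fall within 138 kb of mm9. In Pla2g3+/+ the log2 differences of AOM against vehicle along it were -1.73 for Pla2g2c, -1.11 for Pla2g2f, 2.47 for Pla2g2d, -2.21 for Pla2g5, 4.53 for Pla2g2a and 2.91 for Pla2g2e. Pla2g5, lying between Pla2g2d and Pla2g2a, was lower where both were higher. In the pools labelled Pla2g3-/- the values were between -1.01 and 0.68.

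**Figure D5:**
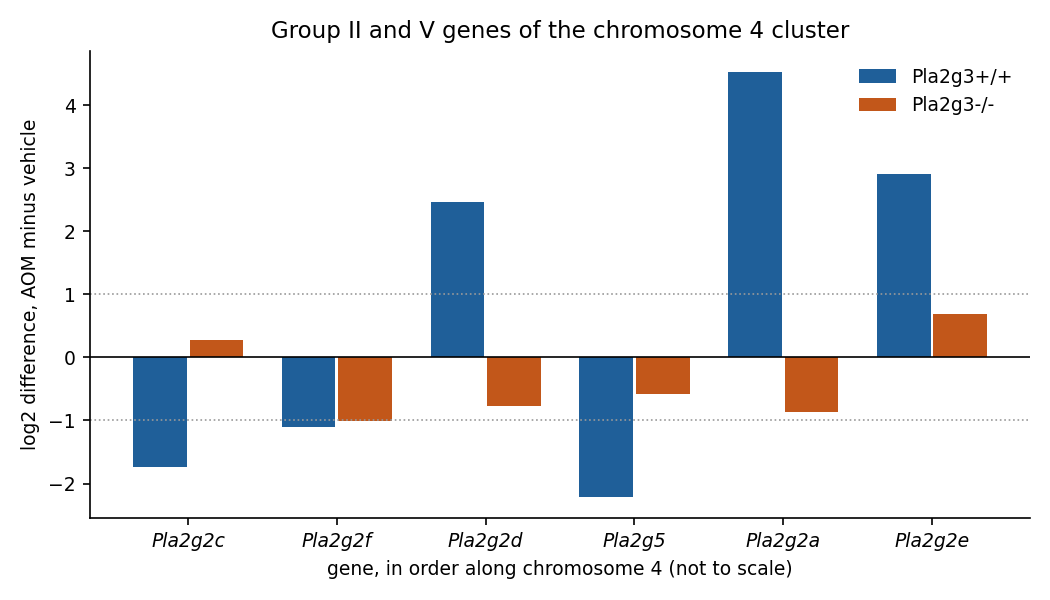
AOM against vehicle (log2 difference, 1 pool per group) for the 6 genes of the chromosome 4 cluster in their order along the chromosome, in Pla2g3+/+ (blue) and in the pools labelled Pla2g3-/- (orange). Dotted lines mark 2-fold. In Pla2g3+/+ the values run from -2.21 for Pla2g5 to 4.53 for its neighbour Pla2g2a.

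Other genes of the sPLA2 fold and the receptor numbered 4. Pla2g2c, the group IIC gene, read 1.41 and 1.21 with vehicle and 0.423 and 1.47 after AOM, 3.47-fold higher in the AOM pool labelled Pla2g3-/-. Pla2r1, the membrane receptor that binds several sPLA2s, read 0.0298 and 0.0374 with vehicle and 0.0919 and 0.106 after AOM, 3.08-fold and 2.83-fold higher after AOM in the 2 genotypes. Proca1, a relative with the sPLA2 fold, read 0.175, 0.154, 0.0384 and 0.0231, lower after AOM by 4.56-fold and 6.65-fold. Oc90, the otoconial protein, was not well above background on any array.

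Genes that act beside the sPLA2s were counted in 3 lists. Between the genotypes with vehicle, where 3.25% of all genes were past 2-fold, those past it were 1 of 15 intracellular and other phospholipases A2 with a value, Pla2g4c (2.03-fold lower in the array labelled Pla2g3-/-), 1 of 14 genes of eicosanoid synthesis, Hpgds, the hematopoietic prostaglandin D synthase (2.27-fold lower), and 0 of 15 genes of lysophospholipid handling. Lpcat2, a lysophosphatidylcholine acyltransferase of the last list, had a log2 difference of -0.15 with vehicle by its brightest probe. The study instead reports a substantial elevation of Lpcat2 in Pla2g3-/- colon without AOM, and the reason for this discrepancy was not tested. After AOM 15.1% of all genes were higher and 12.9% lower. The other phospholipases A2 were then higher in 2 of 16 and lower in 4. Among them Pla2g4f, a cytosolic form, was 6.03-fold higher in the pool labelled Pla2g3-/-. Eicosanoid genes were higher in 1 of 15 and lower in 5. Ptges, a prostaglandin E synthase, is not among those lower, with a log2 difference of 0.16 by its brightest probe. The study reports it as reduced in Pla2g3-/- colon after AOM by array and RT-PCR, and the reason for this discrepancy was not tested. Ptgs2, the inducible cyclooxygenase, was 11.4-fold lower, Alox12, a platelet-type lipoxygenase, 42.3-fold lower, and Ptgds, a prostaglandin D synthase, 8.65-fold lower, whereas Ptgis, prostacyclin synthase, was 6.26-fold higher. Lysophospholipid genes were higher in 5 of 16 and lower in 3, with Enpp2, which makes lysophosphatidic acid, 10.2-fold higher. Median log2 differences of the 3 lists were 0.13, -0.39 and 0.46, against 0.03 over all genes.

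In Pla2g3+/+, AOM against vehicle had 5 of 15 eicosanoid genes higher and 2 lower, 2 of 15 other phospholipases A2 higher and 4 lower, and 4 of 16 lysophospholipid genes higher and 3 lower, beside 15.1% and 22.4% of all genes. Alox12 was 85.9-fold and Ptgs2 13.9-fold higher, Alox15, another lipoxygenase, was at least 7.91-fold higher, and Pla2g4c, a group IVC enzyme, was 18.3-fold lower. Enpp2 was 4.06-fold and Ptgis 3.91-fold lower. In the pools labelled Pla2g3-/- the counts were 3 higher and 1 lower, 1 and 3, and 3 and 0 in the same order of lists, beside 9.64% and 15.1% of all genes. Pla2g4f was 5.24-fold higher, and the lysophospholipid acyltransferases Mboat2 and Lpcat2 were 2.72-fold and 2.65-fold higher. Pla2g4c was at least 16.6-fold lower, Pnpla3 at least 2.77-fold and Ptgds 2.84-fold.

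The 5 genes whose 4 values lay nearest those of Pla2g3, after centring each gene on its mean, were Acss2, Galnt16, Neu3, Stfa3 and Slc2a13, at distances of 0.11 to 0.20 on the log2 scale among 14787 genes. For Pla2g2a they were Arg1, Evx1, Nkd1, Sox17 and Neto2, at 0.37 to 0.61. Arg1, an arginase of alternatively activated macrophages, had log2 differences of 4.98 for AOM against vehicle in Pla2g3+/+ and -4.85 between the genotypes after AOM. Nkd1, a Wnt target, had 3.93 and -4.34. Such likeness over 4 arrays is a description only.

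The fit across arrays left no member past its threshold. An additive limma model of genotype and treatment had 1 residual degree of freedom. With p-values adjusted by Benjamini-Hochberg over 17876 genes, limma called 0 genes (0%) for genotype and 0 (0%) for treatment at an adjusted p under 0.05. At an unadjusted p under 0.05 there were 215 and 2409 genes, and with an intensity trend in limma 83 and 3049. Of the 10 members 1 was among them for genotype, Pla2g12b (limma unadjusted p = 0.0422, adjusted p = 0.994), and 2 for treatment, Pla2g12b (unadjusted p = 0.0235, adjusted p = 0.368) and Pla2g2f (unadjusted p = 0.0450, adjusted p = 0.368). This model takes an effect as alike in both arms, and members whose AOM effects were opposite in the 2 genotypes enter it as residual: Pla2g2a had a limma treatment estimate of 1.83 with an adjusted p of 0.581.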

How the data were processed

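RNA of 4 colon pools, 27.7 ng each, was labelled in 1 color and hybridized to Whole Mouse Genome arrays on 1 slide read in 1 scan. The authors deposited each spot's intensity from Feature Extraction 11.5.1.1, corrected for background and trend within the array, with the software's p-value for equality with background, its error and a flag for spots well above background. Their deposited value table holds the ratio of that intensity to the 75th percentile of its array. Here control spots and outlier spots (the latter 104 to 139 per array, none of a member) were left out, log2 intensities of replicate spots averaged and the percentile subtracted. No spot was saturated. The median SD of 307 to 320 probes spotted repeatedly was 0.057 to 0.066 on the log2 scale, and the number of arrays limits the precision.

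Names came from RefSeq (GRCm38.p6), by accession and then by symbol, for 31372 probes, and only names and gene order were taken from that table. A gene took its brightest probe; every probe of a member is reported. Differences of log2 values were described at 2-fold, and the dim side of a bound was the higher of the probe's own signal and the lowest signal well above background on that array (intensity 10.7 to 17.1). The one test was limma 3.58.1 in R 4.3.3. On simulated data for the treatment effect, 200 of 17876 genes with a log2 change of 3 and noise of SD 0.25, it recovered 100% and called 9 unchanged genes. The simulated effect was alike in both genotypes. In the data the members' standard errors before moderation ran from 0.0501 for Pla2g2f to 2.70 for Pla2g2a. The simulation therefore does not tell how many real differences the fit would find here. Other steps used Python 3.11.15 with numpy 2.4.6, scipy 1.17.1, pandas 2.3.3 and matplotlib 3.10.9.

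Members and lists were chosen with earlier results of these data known. Named were all members, the 4 genes of the fold and receptor list, from 3 lists of neighbouring enzymes the 3 largest differences past 2-fold in each direction and comparison, up to 4 of the brightest genes of a marker list set beside a result, and the 5 genes nearest in pattern. Defa23, Mcpt2, Krt5 and Krt14 fall outside that rule and were chosen after their values were seen. Ptges also falls outside it and is named because the study reports on it. Alternatives were other scalings, normexp with an offset of 50, other filters and probes, and thresholds of 1.5-fold and 4-fold.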

Additional observations from a re-analysis of the deposited data

Results flagged for a closer look

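Members are listed whose differences ran in opposite directions in the 2 genotypes or under the 2 treatments, each with a spot-error interval that left out 0. With 1 array per group these opposite directions were not tested, and which part the pools play was not tested.

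Pla2g3 had a log2 difference of AOM against vehicle of -1.19 in Pla2g3+/+ and 1.09 in the pools labelled Pla2g3-/-, and its second probe gave -1.46 and 1.20. The third probe of Pla2g3 was higher after AOM in both, by at least 0.91 and by 1.17. Pla2g2a had 4.53 and -0.86 in the same comparisons, Pla2g2d 2.47 and -0.76, and Pla2g12a 1.67 and -0.98. Between the genotypes, Pla2g2a differed by 0.61 with vehicle and by -4.78 after AOM (the array labelled Pla2g3-/- minus Pla2g3+/+). Without scaling between arrays the AOM differences in the pools labelled Pla2g3-/- were -0.02 for Pla2g2a, 0.08 for Pla2g2d and -0.14 for Pla2g12a, so that Pla2g2d no longer ran in opposite directions and Pla2g2a and Pla2g12a kept their sign at small values. Pla2g3 in Pla2g3+/+ was then at -0.17.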

How the results depend on the processing

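Of 398 single-gene differences recomputed under 10 other ways of making the values, 328 moved by less than the spot error, 68 moved by more, and 2 called ones changed sign, both with the dimmest probe of the gene: 0.91 for Pla2g3, AOM against vehicle in Pla2g3+/+, and -1.31 for Pla2g1b, AOM against vehicle in the pools labelled Pla2g3-/-. Of 23 differences past 2-fold, 13 were so in every setting. The number of members past 2-fold between the genotypes with vehicle, 1, became 0 after normexp and quantile normalization, 3 with the dimmest probe, 2 at a 1.5-fold threshold and 0 at 4-fold. After AOM the number, 9 (5 higher), became 7 (3 higher) after normexp and quantile normalization, without Pla2g1b (0.70) and Pla2g12b (0.78), and 4 at 4-fold. With the dimmest probe it was 8 of 9 members with a value (4 higher), as Pla2g1b then had none. For AOM against vehicle in the pools labelled Pla2g3-/- the number, 4, became 1 after normexp and quantile normalization, 9 at 1.5-fold and 1 at 4-fold. The cause of these shifts was not tested, beyond the thresholds themselves. In Pla2g3+/+ AOM against vehicle gave 6 to 10 members in place of 9. Omitting the scaling moved the median of all genes by 1.04 in Pla2g3+/+ and 0.84 in the pools labelled Pla2g3-/- for AOM against vehicle, and turned the split of higher and lower genes past 2-fold from 2612 and 3871 to 7751 and 1231 in the first and from 1592 and 2497 to 6396 and 625 in the second. Quantile normalization moved those medians by 0.17 and 0.11. The limma fits called 0 genes under all 6 other settings. No paired analysis was possible because each group has 1 array. Dim probes, such as probe 2 of Pla2g1b, give bounds only.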
